A study of Mus musculus with 3 samples.

Results

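The genes described here are Pgr, Nr3c1 and Nr3c2, which encode the progesterone, glucocorticoid and mineralocorticoid receptors, and Pgrmc1 and Pgrmc2, which encode the progesterone receptor membrane components. They were taken by symbol from the gene rows of single-cell count matrices of mouse ovary, 5 of 53465 genes. All 5 had at least 1 unique molecular identifier (UMI), the tag by which each captured mRNA molecule is counted once. The ovaries came from wild-type female C57BL/6 mice at embryonic day 16.5 (ED16.5), postnatal day 7 (PND7) and postnatal day 14 (PND14). The title of the embryonic sample names day 17, and its age field, which is followed here, gives day 16.5. Tissue was dissociated with collagenase and loaded on the 10x Genomics 3′ droplet system, with 1 library per age; the labels do not say how many animals were pooled. No treatment or mutation is labelled. With 1 library per age there is no replicate and no test, so each interval below is a 95% interval that covers counting error only, and age and library cannot be told apart.

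Nuclear steroid receptors are transcription factors that bind DNA once their hormone has bound them, and the progesterone, glucocorticoid and mineralocorticoid receptors recognise closely similar DNA elements. In the mouse ovary the progesterone receptor is best known for its induction by the luteinising hormone surge in granulosa cells of preovulatory follicles, where it is needed for ovulation. The glucocorticoid receptor is made in most cell types, and the mineralocorticoid receptor is best known from kidney tubules, where it drives sodium uptake. PGRMC1 and PGRMC2 are haem-binding membrane proteins of a separate family that interact with cytochrome P450 enzymes; they are not nuclear receptors.

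In the GENCODE M21 annotation of GRCm38, Pgr lies on chr9:8899833-8968611 (plus strand), Pgrmc1 on chrX:36598206-36606079 (plus) and Pgrmc2 on chr3:41066326-41083046 (minus). All 5 genes are protein-coding, and Nr3c2 alone is overlapped by other annotated genes, 3 in number. None of the 98-base windows in the last 1000 bases of the genes' protein-coding transcripts occurred in an annotated transcript of another gene. This covers identical stretches of that length only, and copies with mismatches were not searched for. The 250 bases upstream of the RefSeq start (GRCm38.p6) are printed for Pgrmc1, Pgrmc2 and Pgr because the first is the most abundant of the 5 genes, the second is its paralogue with a different pattern over cell classes, and the third was almost undetected. Capitals mark matches, on either strand, to the receptor half-site AGAACA, the GC box GGGCGG, the CCAAT box CCAAT and the TATA box TATAAA. Each line reads 5′ to 3′ toward the start of its gene; Pgrmc1 is at chrX:36597943-36598192 (plus), Pgrmc2 at chr3:41083047-41083296 (minus) and Pgr at chr9:8899583-8899832 (plus).
Pgrmc1: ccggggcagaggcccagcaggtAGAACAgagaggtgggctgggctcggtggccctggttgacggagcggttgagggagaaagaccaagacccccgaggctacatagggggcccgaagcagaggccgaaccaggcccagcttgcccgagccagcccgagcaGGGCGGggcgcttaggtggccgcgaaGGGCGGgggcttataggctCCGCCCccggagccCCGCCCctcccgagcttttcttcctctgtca
Pgrmc2: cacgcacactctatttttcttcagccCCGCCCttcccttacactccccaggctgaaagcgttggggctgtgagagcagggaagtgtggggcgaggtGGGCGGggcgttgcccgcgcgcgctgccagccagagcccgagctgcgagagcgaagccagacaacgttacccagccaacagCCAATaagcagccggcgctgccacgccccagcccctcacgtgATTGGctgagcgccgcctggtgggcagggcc
Pgr: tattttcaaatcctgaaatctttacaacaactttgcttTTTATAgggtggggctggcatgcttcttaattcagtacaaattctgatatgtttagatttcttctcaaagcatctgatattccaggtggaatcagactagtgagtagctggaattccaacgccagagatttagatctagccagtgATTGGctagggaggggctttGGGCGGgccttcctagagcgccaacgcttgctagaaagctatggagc
The Pgrmc1 and Pgrmc2 windows were rich in G and C, 69.6% and 67.2%, with 18 and 20 CpG dinucleotides, whereas the Pgr window held 43.6% and 4, against medians of 52.4% and 6 over 32851 RefSeq windows. The Pgrmc1 window held 4 GC boxes and 1 half-site, the Pgrmc2 window 2 GC boxes and 2 CCAAT boxes, and the Pgr window 1 GC box, 1 CCAAT box and 1 TATA box. Of all windows 32.7% held a GC box, 16.1% a half-site, 33.8% a CCAAT box and 12.4% a TATA box. The Nr3c2 window had 68.4% G and C with 3 GC boxes and 3 CCAAT boxes. None of the 4 windows held the full element, AGAACA and TGTTCT with 3 bases between them, which was in 3 of the 32851. These are letter matches and were not tested as binding sites.

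The matrices held 459, 510 and 585 cell barcodes at the 3 ages, with 8994085, 8743797 and 9065595 UMIs in all; 456, 509 and 583 of them were kept, with medians of 15090.5, 12224 and 11435 UMIs per kept cell. No barcode was shared between libraries. Cells were grouped into 20 clusters, and 15 were named from marker genes. Granulosa-like cells, the somatic cells that surround the oocyte, numbered 87, 88 and 94 at ED16.5, PND7 and PND14, and stroma-like cells 105, 157 and 183. Endothelium-like cells numbered 19, 21 and 28, and germ-like cells 68, 12 and 3. Surface epithelium-like cells numbered 15 and 12 after birth, and 43 theca-like cells, the steroid-producing cells outside the follicle, were all from PND14. Different clusters made up a class at each age: the embryonic granulosa-like cells formed cluster 0, most of those at PND7 cluster 11 and most at PND14 cluster 18, and stroma-like cells came mostly from clusters 3, 13 and 16 in turn. Germ-like cells were meiotic cells in clusters 1 and 7 in the embryo and Zp3-positive oocytes in cluster 10 after birth. Most defining markers were found in the classes described here. At 0 were Fshr in embryonic granulosa-like cells, Tox3 in those of PND7, the oocyte genes Zp2, Zp1, Oosp1, Gdf9 and Bmp15 in embryonic germ-like cells, and Stra8, a gene of meiotic entry, in PND7 oocytes. Embryonic granulosa-like cells also carried more of other classes' markers: surface epithelium markers summed to 1530 CPM there against 211 and 114 later, and stroma markers to 1770 CPM against 421 and 622.

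Over all 1548 cells the 5 genes fell far apart in abundance. Pgrmc1 had 4230 UMIs in 1212 cells, Nr3c1 1007 in 590, Pgrmc2 870 in 581, Nr3c2 39 in 33 and Pgr 23 in 21. The UMIs are counted at the 3′ end, once per captured mRNA, and were not divided by transcript length. Levels below are CPM, the UMIs of the gene per 1000000 UMIs summed over the cells of a class.

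Nr3c1, the glucocorticoid receptor gene (chr18:39410545-39519421, minus strand), was lower in granulosa-like cells after birth and not in stroma-like or endothelium-like cells. In granulosa-like cells it stood at 28.7 CPM at ED16.5 (52 UMIs, 21.4 to 37.7), 12.7 CPM at PND7 (25 UMIs, 8.25 to 18.8) and 12.2 CPM at PND14 (20 UMIs, 7.46 to 18.9). The embryonic interval lies above both later ones, which overlap each other. The ratio of CPM to the embryo was 0.444 at PND7 (0.264 to 0.728) and 0.425 at PND14 (0.241 to 0.725). In stroma-like cells the levels were 34.4, 51.3 and 45.8 CPM from 65, 83 and 90 UMIs, and the ratio of PND7 to ED16.5 was 1.49 (1.07 to 2.1). In endothelium-like cells they were 34.5, 57.3 and 92.2 CPM from 17, 29 and 65 UMIs, with a PND14 to ED16.5 ratio of 2.67 (1.55 to 4.86). The direction in granulosa-like cells was thus opposite to that in these classes, a difference between classes that was not tested.

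**Figure D1:**
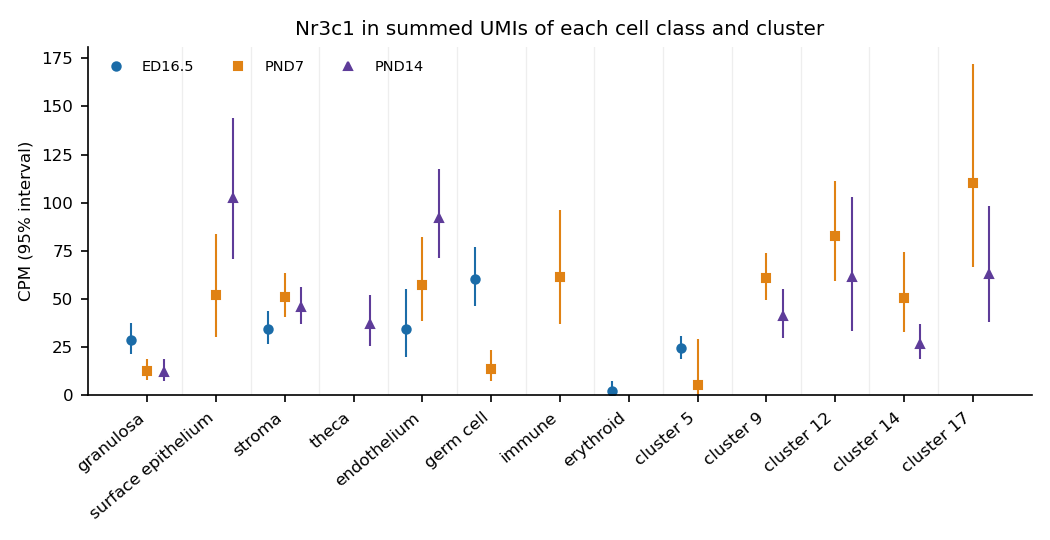
Nr3c1 level in CPM (y axis) for each cell class or cluster with at least 10 cells (x axis); points are libraries, ED16.5, PND7 and PND14, and bars are exact Poisson 95% intervals. Granulosa-like cells sit at 12.7 and 12.2 CPM after birth, while stroma-like cells sit at 51.3 and 45.8 CPM.

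Within the embryo the Nr3c1 intervals of endothelium-like, stroma-like and granulosa-like cells overlapped. After birth granulosa-like cells were at the low end: at PND7 only cluster 5 (1 UMI) was lower, its interval overlapping theirs, and at PND14 no class or cluster with at least 10 cells was lower. Stroma-like cells had 4.02 times the granulosa-like level at PND7 (2.55 to 6.57) and 3.75 times at PND14 (2.29 to 6.42). As log2 ratios of CPM for Nr3c1 these are 2.01 and 1.91. The alternatives with the highest values gave 2.78 at PND7, with each library clustered on its own, and 3.37 at PND14, with classes gated cell by cell. The lowest values were 1.96 at PND7 and 1.89 at PND14. Surface epithelium-like cells had 52.2 CPM at PND7 (30.4 to 83.5) and 103 CPM at PND14 (70.6 to 144), theca-like cells 37.2 CPM (25.8 to 52.0) and immune-like cells of PND7 61.5 CPM (37.0 to 96.0). Calling a gene different where log2 of (CPM + 10) differed by at least 1, that is 2-fold, in genes with at least 10 UMIs in both sums together, 15.5% of genes were called between stroma-like and granulosa-like cells at PND7 and 12.5% at PND14. Nr3c1 was the 1 gene called among the 4 of the 5 that were measured, at both ages, and was higher in stroma-like cells; 6.32% and 5.14% of all genes were called in that direction. In the embryo none of 3 was called, against 10.2% of all genes.

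Cell by cell, Nr3c1 had a UMI in 33.3%, 21.6% and 12.8% of granulosa-like cells and in 36.2%, 36.9% and 36.6% of stroma-like cells at the 3 ages. Thinned to 5000 UMIs per cell, the shares were 8.05%, 1.14% and 2.13% in granulosa-like cells and 17.1%, 21.7% and 21.9% in stroma-like cells, so at equal depth stroma-like cells had the larger share at PND7 and PND14; at ED16.5 the intervals overlap (3.3% to 15.9% and 10.5% to 25.7%). Embryonic erythroid-like cells, taken as the class that should show free RNA, had an Nr3c1 UMI in 2 of 52 cells (3.85%) at a median depth of 14257 UMIs, and in 0 of 52 after thinning, which allows up to 5.77%. The thinned granulosa-like shares after birth lie under that limit, which comes from another library, while the unthinned share at PND7 (13.5% to 31.6%) lies above the erythroid-like interval (0.469% to 13.2%) and that at PND14 (6.77% to 21.2%) overlaps it. Of erythroid-like UMIs 86.7% were globin; without globin genes their Nr3c1 level was 16.1 CPM (1.95 to 58.1), an interval that covers every granulosa-like level.

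A UMI of Upk3b or Upk1b, genes of the surface epithelium, was found in 21 of the 87 embryonic cells; Nr3c1 stood at 28.9 CPM in those and 28.6 CPM in the other 66. The part of the stroma markers in the embryonic level was not tested. The cell-by-cell marker gate put 0 of the 87 into the granulosa class, so it gives no embryonic value.

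Embryonic germ-like cells had the highest Nr3c1 level of that library among classes and clusters with at least 10 cells, 60.4 CPM (64 UMIs, 46.5 to 77.1), 2.1 times that of granulosa-like cells (1.44 to 3.09). PND7 oocytes had 13.7 CPM (13 UMIs, 7.31 to 23.5), a ratio to the embryo of 0.227 (0.115 to 0.417). Counted per cell the values were 0.941 UMIs per embryonic germ-like cell and 1.08 per oocyte, at median depths of 14188.5 and 81812.5 UMIs. The part of the depth in the CPM ratio was not tested. Of all genes 29.8% were called between these very different germ-like cells, and Nr3c1, lower, and Pgrmc1, higher, were 2 of the 3 measured; 10.8% of all genes were lower and 19.0% higher.

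Among clusters left unnamed, Nr3c1 stood at 82.5 and 61.5 CPM at PND7 and PND14 in cluster 12, which carries 11 of 17 stroma markers. In cluster 17, led by smooth muscle genes such as Cnn1, Actg2 and Myh11, it stood at 110 and 62.9 CPM, but 1 cell held 11 of the 19 UMIs at PND7. Cluster 14, led by genes such as Hhip and Osr2, had 50.7 and 26.8 CPM, a PND14 to PND7 ratio of 0.529 (0.311 to 0.912). Cluster 9, led by mitotic genes, had 60.8 and 41.0 CPM. Cluster 5, which carries erythroid markers and Klf1, had 24.4 CPM in the embryo. Joining cluster 12 to the stroma-like cells left the Nr3c1 contrast with granulosa-like cells in the same direction.

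**Figure D2:**
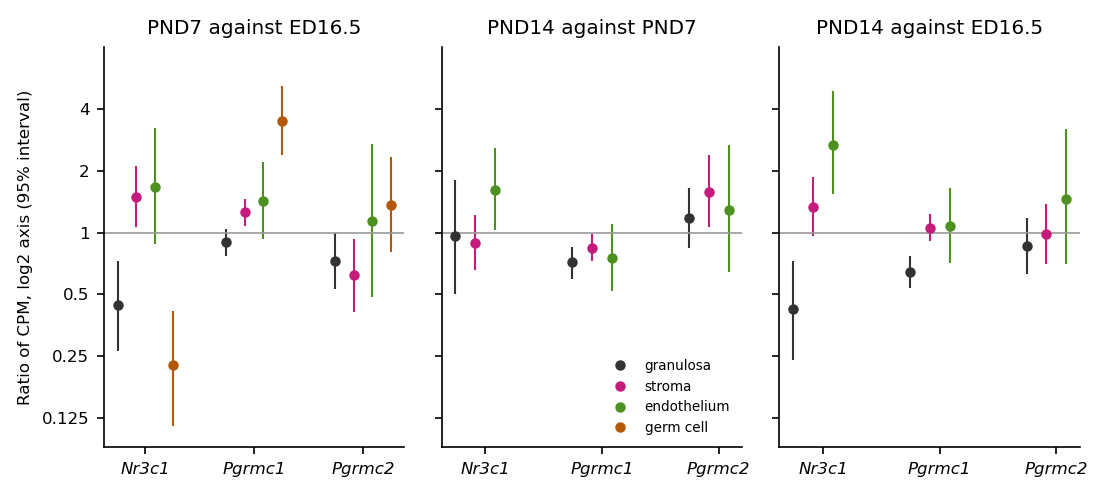
Ratio of CPM between ages (y axis, log2 scale) for Nr3c1, Pgrmc1 and Pgrmc2 in 4 cell classes; bars are exact conditional binomial 95% intervals and the grey line marks a ratio of 1. Nr3c1 at PND7 lies at 0.444 in granulosa-like and 1.49 in stroma-like cells, and Pgrmc1 lies at 3.48 in germ-like cells.

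Nr3c2, the mineralocorticoid receptor gene (chr8:76899442-77245012, plus strand), was scarce, and most of its UMIs were in granulosa-like cells. These had 5 UMIs at ED16.5 (2.76 CPM, 0.897 to 6.44), 10 at PND7 (5.10 CPM, 2.45 to 9.38) and 11 at PND14 (6.72 CPM, 3.35 to 12), in 5, 7 and 8 cells. The 3 intervals overlap, so no difference with age was detectable at this depth. Stroma-like cells had 0 UMIs in all 3 libraries, which allows up to 1.59, 1.85 and 1.53 CPM; taking 3 UMIs as the limit, granulosa-like cells were at least 2.75-fold higher at PND7 and at least 4.40-fold higher at PND14. With the counting error of the granulosa-like UMIs included, the lower bounds of the exact ratio intervals were 1.85 and 3.01 at these ages and 0.957 at ED16.5, where the interval does not exclude equal levels. Theca-like cells also had 0, which allows up to 3.28 CPM. Surface epithelium-like cells had 1 and 3 UMIs after birth (3.07 and 9.32 CPM), endothelium-like cells 0, 1 and 2, and PND7 oocytes 3 (3.17 CPM). The surface epithelium-like value was the highest of PND14 among classes and clusters with at least 10 cells. All these intervals overlap those of granulosa-like cells. Granulosa-like cells with a UMI of Upk3b or Upk1b held 3 of the 5 UMIs at ED16.5 and 3 of the 11 at PND14. Their PND14 level was 15.8 CPM (3.26 to 46.2), against 5.53 CPM (2.39 to 10.9) in the rest. Erythroid-like cells had 0 UMIs in 52 cells, which allows up to 3.20 CPM, above the embryonic granulosa-like level, so that level is not separated from background. Without globin genes the upper bound of the erythroid-like interval was 29.7 CPM, above the granulosa-like level of each age. This class therefore separates none of these levels from background.

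At PND14 all 11 granulosa-like UMIs of Nr3c2 were in cluster 18 (8.55 CPM, 4.27 to 15.3), the cluster led by Inhba, Inha, Hsd17b1 and Cyp19a1, and none in the 16 cells of cluster 11, where 0 allows up to 8.57 CPM. The intervals of the 2 clusters overlap. At PND7, 3 cells held 6 of the 10 UMIs. After thinning, 0, 4 and 2 granulosa-like cells kept a UMI.

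Pgr, the progesterone receptor gene, was near the limit of detection in every class. The 3 libraries held 10, 2 and 11 UMIs. Granulosa-like cells had 4 UMIs in 4 cells at ED16.5 (2.21 CPM, 0.602 to 5.66) and 0 at PND7 and PND14, which allows up to 1.53 and 1.83 CPM. Stroma-like cells had 3, 0 and 5 UMIs, the 5 in 3 cells, and germ-like cells 3 in the embryo. Theca-like cells had 2 UMIs (2.19 CPM, 0.265 to 7.90), and endothelium-like and surface epithelium-like cells had 0. The highest level was in cluster 12 at PND14, 13.2 CPM from 3 UMIs in 3 of 27 cells (2.72 to 38.5); its unthinned share of cells, 11.1%, has an interval of 2.35% to 29.2%. Every Pgr interval in granulosa-like, stroma-like and theca-like cells overlaps the others, so no order was detectable among these classes. Cluster 12 at PND14, singled out as the highest, had 3 UMIs against 0 in granulosa-like cells. The lower bound of that ratio was 2.97.

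**Figure D3:**
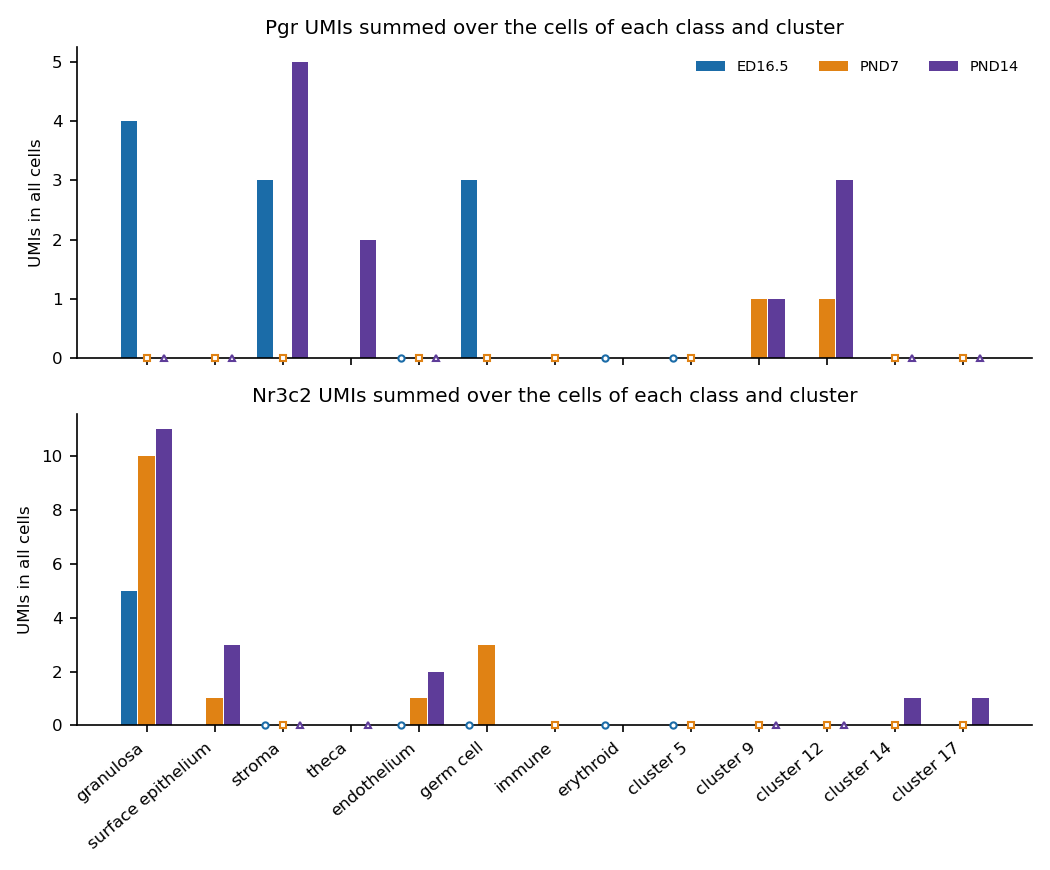
UMIs of Pgr and Nr3c2 (y axis) summed over all cells of each class or cluster with at least 10 cells (x axis), with a bar for each library and an open symbol where the sum is 0. Nr3c2 reaches 5, 10 and 11 UMIs in granulosa-like cells and 0 in stroma-like cells; Pgr does not pass 5 in any.

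Pgrmc1, the most abundant of the 5, was highest in theca-like cells. These had 467 CPM (427 UMIs, 424 to 514), with a UMI in 42 of 43 cells, a median of 8 per cell and at most 28. That was 3.82 times the granulosa-like level of the same library (3.22 to 4.55) and 2.53 times the stroma-like level (2.19 to 2.92). The theca-like interval lies above that of every other class and cluster of PND14 with at least 10 cells. Cluster 17 (308 CPM, 248 to 377) and cluster 12 (285 CPM, 220 to 364) came next and overlapped each other, and endothelium-like cells were lowest among those with at least 10 cells (85.1 CPM, 64.9 to 110). Between theca-like and granulosa-like cells 11.5% of genes were called, 4.82% higher and 6.71% lower in theca-like cells; Pgrmc1 and Nr3c1 were 2 of the 4 measured, both higher.

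In granulosa-like cells Pgrmc1 stood at 191 CPM at ED16.5 (345 UMIs, 171 to 212), 171 CPM at PND7 (335 UMIs, 153 to 190) and 122 CPM at PND14 (200 UMIs, 106 to 140). The PND14 interval lies below both others, with a ratio of 0.715 to PND7 (0.597 to 0.854) and 0.641 to ED16.5 (0.536 to 0.765). The embryonic class was mixed. Its 21 cells with a UMI of Upk3b or Upk1b had 146 CPM (115 to 183). The other 66 had 208 CPM (184 to 235), and these intervals do not overlap. At PND14 the 16 granulosa-like cells of cluster 11, the main cluster of PND7, had 103 CPM (72.0 to 142). Those of cluster 18 had 127 CPM (109 to 148). The intervals of the clusters overlap, and the part of cluster make-up in the difference with age was not tested. Stroma-like cells had 174 CPM, 219 CPM and 185 CPM, with ratios of 1.25 for PND7 to ED16.5 (1.08 to 1.46) and 0.844 for PND14 to PND7 (0.727 to 0.980). Surface epithelium-like cells went from 218 to 140 CPM, a ratio of 0.642 (0.432 to 0.946). Clusters 9 and 14 also had less at PND14 than at PND7, with ratios of 0.787 (0.658 to 0.938) and 0.688 (0.551 to 0.862).

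Germ-like cells differed most with age. Pgrmc1 stood at 34.9 CPM in the embryo (37 UMIs in 68 cells) and 121 CPM in PND7 oocytes (115 UMIs in 12 cells), a ratio of 3.48 (2.38 to 5.19). Per cell this was 0.544 against 9.58 UMIs, so oocytes had more on both scales. Erythroid-like cells had 8 UMIs, 5 of them in 1 cell, and a UMI in 7.69% of cells, against 90.8% of granulosa-like cells of the same library at median depths of 14257 and 16854. These depths include globin. The 52 erythroid-like cells held 124354 UMIs of other genes and the 87 granulosa-like cells 1796676, so the shares were not taken at equal usable depth. Without globin genes the erythroid-like level was 64.3 CPM (27.8 to 127), against 35.1 CPM (24.7 to 48.4) in embryonic germ-like cells. The embryonic germ-like level is thus not separated from background.

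**Figure D4:**
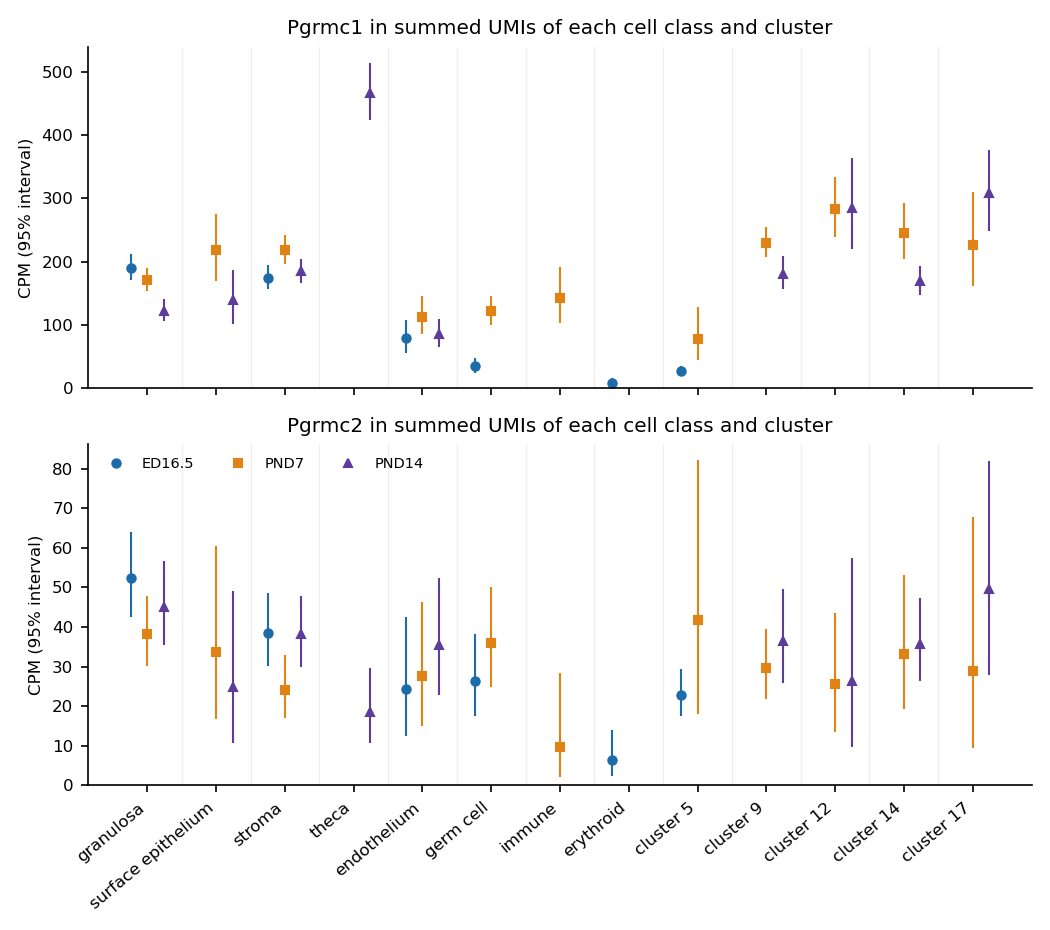
Level in CPM (y axes, each from 0) of Pgrmc1 and Pgrmc2 for each class or cluster with at least 10 cells (x axis); points are the 3 libraries and bars exact Poisson 95% intervals. Theca-like cells are at 467 CPM for Pgrmc1 and 18.6 CPM for Pgrmc2.

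Pgrmc2 was spread more evenly than its paralogue. Granulosa-like cells had 52.5 CPM at ED16.5 (95 UMIs, 42.4 to 64.1), 38.2 CPM at PND7 (75 UMIs, 30.1 to 47.9) and 45.2 CPM at PND14 (74 UMIs, 35.5 to 56.7). The intervals overlap, and the PND7 to ED16.5 ratio of 0.729 has an upper bound of 0.997. Stroma-like cells had 38.6, 24.1 and 38.1 CPM, lower at PND7 than at ED16.5 (ratio 0.624, 0.412 to 0.933) and higher again at PND14 (1.58, 1.06 to 2.39). Theca-like cells had 18.6 CPM (17 UMIs, 10.8 to 29.8), the lowest point value of PND14 among classes and clusters with at least 10 cells, 0.411 times the granulosa-like level (0.228 to 0.704), although their interval overlaps that of several classes. Immune-like cells of PND7 had 9.71 CPM from 3 UMIs (2.00 to 28.4).

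The balance of the 2 paralogues followed from this. Pgrmc1 made up 96.2% of the UMIs of both in theca-like cells (427 of 444, exact binomial interval 93.9% to 97.8%). In granulosa-like cells it made up 78.4%, 81.7% and 73.0% at the 3 ages, and in stroma-like cells 81.9%, 90.1% and 82.9%. The lowest shares were in cluster 5 (54.5%, 45.7% to 63.1%) and germ-like cells (56.9%, 44.0% to 69.2%) of the embryo; oocytes of PND7 had 77.2% (69.6% to 83.7%).

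None of the 4 measured genes was called between ages in granulosa-like cells. Of all genes 8.38% were called between PND7 and ED16.5, 2.45% between PND14 and PND7 and 8.74% between PND14 and ED16.5. In the first of these contrasts 3.31% were higher and 5.08% lower, and in the second 1.23% each way. The median log2 ratio of the 4 was -0.26, 0.06 and -0.39, against -0.10, -0.02 and -0.12 over all genes. In stroma-like cells 0 of 3 were called, where 4.82%, 1.75% and 7.00% of all genes were. In the first contrast 2.30% were higher and 2.52% lower, and in the second 0.825% and 0.925%. The addition of 10 CPM understates the ratio of low genes, so Nr3c1 at PND7 had a log2 ratio of -0.77 on this scale. With TMM scaling every granulosa-like ratio to the embryo moved up, by 0.15 at PND7 and 0.18 at PND14 on the log2 scale, and the share of called genes that were higher went from 39.5% to 50.9% and from 31.8% to 43.4%; in stroma-like cells at PND14 it went from 43.0% to 53.1%. In endothelium-like cells 1 of 3 was called between PND14 and ED16.5, Nr3c1, against 9.52% of all genes, 7.73% being higher.

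The genes around these receptors are described as lists, by the number called and the median log2 ratio of (CPM + 10). Among 18 glucocorticoid-induced genes, 16 were measured in granulosa-like cells between PND7 and ED16.5. Of the 16, 0 were called higher and 4 lower, against 3.31% and 5.08% of all genes, with a median of -0.63. These 4 were Mt1 and Mt2, which encode metallothioneins, from 537 to 120 CPM and from 175 to 20.9 CPM, Dusp1, a phosphatase of MAP kinases, from 232 to 105 CPM, and Cdkn1a, a cyclin kinase inhibitor, from 37.0 to 13.3 CPM. The log2 ratios of Dusp1 and Cdkn1a, -1.08 and -1.01, lay close to the limit. Between PND14 and PND7, 3 of 17 were higher and 0 lower, where 1.23% of all genes were called each way. The 3 were Mt1 (342 CPM at PND14), Glul, the glutamine synthetase gene (22.4 to 74.5 CPM), and Klf9, a zinc finger factor (31.1 to 86.1 CPM).

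In stroma-like cells the list had 2 of 16 higher and 1 lower between PND7 and ED16.5, against 2.30% and 2.52% of all genes. Klf9 stood at 13.2, 39.5 and 172 CPM at the 3 ages, Glul at 52.9, 253 and 283 CPM, and Mt2, the gene called lower, at 48.1, 13.0 and 40.2 CPM. Tsc22d3, which encodes the glucocorticoid-induced leucine zipper protein, stood at 85.1, 133 and 140 CPM in stroma-like cells and at 48.6, 27.5 and 63.5 CPM in granulosa-like cells. Fkbp5, an HSP90 co-chaperone that lowers the receptor's hormone binding, went the other way between the classes, 51.8, 43.9 and 49.3 CPM in stroma-like and 134, 163 and 120 CPM in granulosa-like cells. Both differed by more than 2-fold between the classes at PND7 and PND14, and Fkbp5 at ED16.5 as well. Sgk1, a kinase gene, stood at 185, 96.8 and 112 CPM in endothelium-like cells and at 9.39, 8.16 and 14.7 CPM in granulosa-like cells.

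Genes that tissue dissociation can induce were counted in the same libraries. Hspa1a, a heat shock gene, stood at 5.52, 262 and 170 CPM in granulosa-like cells and at 13.2, 484 and 683 CPM in stroma-like cells. Of 15 such genes, 2 were called higher and 2 lower in granulosa-like cells between PND7 and ED16.5 and 0 of 15 between PND14 and PND7. The shares of all genes were 3.31% higher and 5.08% lower in the first contrast and 1.23% each way in the second. From ED16.5 to PND7, 9 of 14 dissociation genes were higher and 0 lower in endothelium-like cells, where 4.90% of all genes were higher and 1.79% lower. Dusp1 is on both lists, and the part of dissociation in the levels of the receptor targets was not tested.

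**Figure D5:**
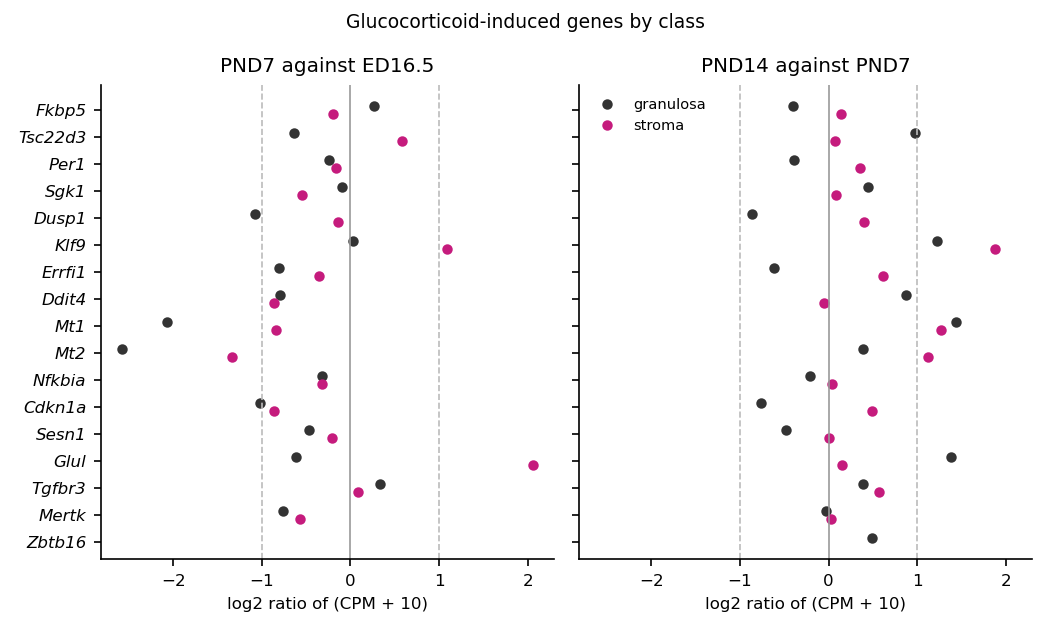
Log2 ratio of (CPM + 10) between ages (x axes) for each measured glucocorticoid-induced gene (y axis) in granulosa-like and stroma-like cells, 1 library per age; dashed lines mark 2-fold. Mt2 lies furthest left in granulosa-like cells at PND7, and Klf9 lies past 2-fold in stroma-like cells in both panels.

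Of 5 corticosteroid metabolism genes 4 were measured between stroma-like and granulosa-like cells. At ED16.5 and at PND7, 1, Hsd11b2, was called higher in stroma-like cells and 1, Akr1c14, lower, and 0 were called at PND14. Of all genes 2.80%, 6.32% and 5.14% were called higher at the 3 ages, and 7.37%, 9.13% and 7.39% lower. Hsd11b2, whose enzyme inactivates corticosterone and protects the mineralocorticoid receptor from it, stood at 65.0, 88.3 and 69.2 CPM in stroma-like cells and at 7.18, 25 and 46.4 CPM in granulosa-like cells. Hsd11b1, whose enzyme regenerates corticosterone, had 0 UMIs in granulosa-like, theca-like and endothelium-like cells and 1, 1 and 0 in stroma-like cells. Akr1c14, a hydroxysteroid dehydrogenase gene, stood at 50.3, 148 and 194 CPM in granulosa-like and at 3.70, 32.1 and 120 CPM in stroma-like cells. Of 5 genes 4 were measured in granulosa-like cells, and 2 were called higher and 0 lower between PND7 and ED16.5, Hsd11b2 and Akr1c14. In that contrast 3.31% of all genes were higher and 5.08% lower. In theca-like cells Srd5a1, the gene of steroid 5α-reductase, stood at 85.3 CPM against 5.50 CPM in granulosa-like cells of PND14.

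Of 10 mineralocorticoid-induced and sodium channel genes, 6 were measured in granulosa-like cells, and 0 were called between PND7 and ED16.5, against 8.38% of all genes. Scnn1b and Scnn1g, subunits of the epithelial sodium channel, and Kcnj1, a potassium channel, had 0 UMIs in all the named classes described here, and Scnn1a had 7, 2 and 1 in granulosa-like cells. Atp1b1, a subunit of the sodium pump, was called lower at PND14 than at PND7 in both classes, 190 to 47.6 CPM in granulosa-like and 97.0 to 13.2 CPM in stroma-like cells. The shares of all genes called lower there were 1.23% and 0.925%.

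Of the membrane progestin receptor genes and relatives of the PGRMC family, 6 of 9 were measured in granulosa-like cells. Paqr6 was called higher at PND7 than at ED16.5 (1.10 to 21.4 CPM) and Paqr8 lower (17.1 to 1.53 CPM), and the median was -0.33. Between these ages 3.31% of all genes were called higher and 5.08% lower in granulosa-like cells. Nenf, which encodes neudesin, a relative of PGRMC1, was the most abundant, 483, 395 and 319 CPM in granulosa-like and 545, 709 and 524 CPM in stroma-like cells. Of 10 genes whose proteins are reported to bind PGRMC1 or PGRMC2 or to work with them, 1 was called in granulosa-like cells between PND7 and ED16.5, Scap, a sterol sensor, from 43.1 to 99.4 CPM. In theca-like against granulosa-like cells of PND14, 4.82% of all genes were called higher and 6.71% lower, with a median of -0.12. Among the 10 listed genes 5 were called higher and 0 lower there, with a median of 0.98. They were Alas1, the rate-limiting enzyme of haem synthesis outside erythroid cells (233 against 20.2 CPM), Cyp51, of cholesterol synthesis (62.3 against 11.0 CPM), Por, the electron donor of P450 enzymes (102 against 19.5 CPM), Tmem97 (63.4 against 21.4 CPM) and Cyb5r3 (242 against 109 CPM).

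Of 7 progesterone synthesis and breakdown genes, 6 were called higher in theca-like than in granulosa-like cells, as were 4.82% of all genes. Those 6 are also among the markers that named the class. In granulosa-like cells Hsd3b1, whose enzyme makes progesterone from pregnenolone, stood at 33.7, 220 and 848 CPM. There 2 of 5 measured genes were higher between PND7 and ED16.5, Hsd3b1 and Akr1c18, against 3.31% of all genes. Akr1c18, which inactivates progesterone, stood at 1.10, 15.8 and 6.11 CPM. Of 15 targets of the progesterone receptor in ovulation, 8 were measured in granulosa-like cells between PND7 and ED16.5. Ctsl, a lysosomal protease gene, was higher (113 to 554 CPM), and Cited2, a transcriptional coregulator gene, was lower (331 to 91.8 CPM). Higher and lower were 3.31% and 5.08% of all genes. Areg had 0 UMIs in granulosa-like cells of all 3 ages, and Ereg 11, 1 and 0.

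Chaperones hold the nuclear receptors ready for hormone. Hsp90ab1, which encodes an HSP90 protein, stood at 2114, 2638 and 2558 CPM in granulosa-like cells, and 0 of 15 chaperone genes were called there between any 2 ages. Fkbp5 and Dnajb1 were called lower in stroma-like than in granulosa-like cells at each age, as were 7.37%, 9.13% and 7.39% of all genes. Of 13 receptor coregulator genes, 0 were called in granulosa-like cells between any 2 ages. The shares of all genes called there were 8.38% for PND7 to ED16.5, 2.45% for PND14 to PND7 and 8.74% for PND14 to ED16.5. Nrip1, a corepressor gene needed for ovulation, was called higher in stroma-like cells at PND14 than at PND7, 103 against 42.6 CPM, as were 0.825% of all genes.

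Over the 26 sums of a class or cluster in a library, the Pearson correlation of log2 of (CPM + 10) between the 5 genes was highest for Nr3c1 with Pgrmc1 (0.48) and next for Pgrmc1 with Pgrmc2 (0.40). Among 5796 genes with a mean of at least 20 CPM, the genes most like Nr3c1 were Klc1 (0.84), Snap23, Atg3, Fgfr1 and Tsc22d3 (0.81). Those most like Pgrmc1 were Hadh (0.93), Ech1, Selenos, Prpsap1 and Akr1b10 (0.91), and those most like Pgrmc2 were Gcc2 (0.80), Smg6, Epc2, Prpf6 and Snw1 (0.75). The 26 sums include embryonic erythroid-like cells, with 86.7% globin UMIs, and cluster 5, with 23.6% at ED16.5 and 17.6% at PND7. Globin UMIs lower the CPM of all other genes in those sums together. Their part in these correlations was not tested. The sums of 1 library also share its depth and preparation, and these values are descriptions. Pgr and Nr3c2 had too few UMIs for a pattern to be compared.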

How the data were processed

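Single cells of 3 mouse ovary libraries were analysed from UMI counts per gene and cell barcode that the authors deposited. The submitters' processing notes name Cell Ranger 2.1.1 and GRCm38. Which annotation was used, and how barcodes were called cells, is not given in the sources used here. Of 53465 versioned identifiers, 50690 matched GENCODE M21 with the version and 53360 without it. Cells with at least 200 genes and at most 20% mitochondrial counts were kept, 1548 of 1554. They were clustered in scanpy 1.11.5 (2000 variable genes without the listed genes, 30 components, 15 neighbours, Leiden resolution 1.0). Clusters were named for the class that had the most markers raised 2-fold or more over all other cells (3 or more markers, 1 or more of them within the 10 leading genes, and no class with more of those); 5 clusters, 517 cells, stayed unnamed. The marker gate cell by cell was an alternative. Scrublet marked 1, 3 and 2 doublets, which were kept in the results above.

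UMIs were summed per class and library and scaled to CPM, with exact Poisson intervals, exact conditional binomial intervals for ratios and exact Clopper-Pearson intervals for shares, all at 95%. A count of 0 was taken to allow 3 UMIs. UMIs remove amplification copies, and intervals and limits cover counting error only. Depth ranged from 8743797 to 9065595 UMIs per library. No p-value was computed. The calculations were tested on simulated Poisson counts. Interval coverage was checked for well-detected genes only, not for genes with few UMIs or UMIs concentrated in a few cells. All 5 genes are described in each class with at least 10 cells; of each other list, the highest and lowest genes and those past 2-fold were eligible to be named, at most 4 a list in each contrast, and a few levels of other listed genes (Tsc22d3, Sgk1, Hsd11b1, Scnn1a, Scnn1b, Scnn1g, Kcnj1, Nenf, Cyb5r3, Areg, Ereg, Hsp90ab1) were chosen after their values were seen. The 5 genes and the lists were chosen with earlier results of these data known. The alternatives included TMM scaling by edgeR 4.0.16. Promoter sequences are from RefSeq on GRCm38.p6, which held windows for 4 of the 5 genes; no protein sequence was used here.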

Additional observations from a re-analysis of the deposited data

Results flagged for a closer look

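Nr3c1 differed between ages in opposite directions in different cell classes, with 1 library per age, and the difference between classes was not tested. From ED16.5 to PND7 the ratio of CPM was 0.444 in granulosa-like cells (0.264 to 0.728) and 0.227 in germ-like cells (0.115 to 0.417), but 1.49 in stroma-like cells (1.07 to 2.1). From ED16.5 to PND14 it was 0.425 in granulosa-like cells (0.241 to 0.725) and 2.67 in endothelium-like cells (1.55 to 4.86). The germ-like cells compared are meiotic cells of clusters 1 and 7 in the embryo and oocytes of cluster 10 at PND7, with 0.941 and 1.08 Nr3c1 UMIs per cell.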

How the results depend on the processing

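The 15 leading ratios were recomputed under 9 to 12 alternatives each, and 13 kept their sign in all of them; the exceptions were Nr3c1 in granulosa-like cells between PND14 and PND7 (log2 -1.21 to 0.06, main -0.06) and Nr3c2 between PND7 and ED16.5 (-0.25 to 1.79, main 0.89). The Nr3c1 log2 ratio in granulosa-like cells to ED16.5 ranged from -1.83 to -1.02 at PND7 and from -1.97 to -1.05 at PND14, and that of Pgrmc1 in theca-like against granulosa-like cells from 1.77 to 2.03. Of 148 recomputed values of these ratios 5 moved outside the counting interval: Nr3c1 in granulosa-like cells, PND14 against PND7, to -1.21 with classes gated cell by cell; stroma-like against granulosa-like at PND7 to 2.78 with each library clustered on its own and at PND14 to 3.37 with the gate and 2.77 with a mean over cells; and Pgrmc1 in granulosa-like cells at PND7 against ED16.5 to -0.43 with each library clustered on its own. The cause was not tested. TMM scaling turned the Pgrmc2 log2 ratio of erythroid-like to granulosa-like cells of the embryo positive, 0.28, where the TMM factor of globin-rich erythroid-like cells was 0.1318. With a pseudocount of 1 CPM the genes past 2-fold in granulosa-like cells were 1003 higher and 1958 lower (PND7 against ED16.5), 635 and 730 (PND14 against PND7) and 882 and 2074 (PND14 against ED16.5), and in stroma-like cells 779 and 1370, 549 and 586, and 908 and 1522. With TMM 443 and 510 genes were lower than at ED16.5 in granulosa-like cells at PND7 and PND14, against 678 and 785. Over all results 83 of 730 levels, 20 of 816 ratios and 83 of 240 shares moved, 34 of 80 levels without mitochondrial, ribosomal and globin genes and 21 of 80 without the 3 cells with most UMIs. The alternatives that left out Upk3b or Upk1b cells, used the largest granulosa-like cluster or joined cluster 12 to the stroma-like cells were chosen after seeing the data. Leaving out a library would remove an age, so no such value exists. No paired analysis was possible because each age has 1 library. Depth limits Pgr and Nr3c2 most.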
